A study of Mus musculus with 20 samples.

Results

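The genes described here make sterols and fatty acids or control that synthesis. They were taken by symbol from a list of 31, of which 30 were found in both deposited count tables, among 11284 genes that the tables share. Scd1 was absent from both tables and was not analysed. By role the list holds 7 enzymes of the mevalonate and isoprenoid steps, 11 of the squalene and sterol steps, 4 regulators and carriers, 5 genes of fatty acid synthesis and its supply, and 4 of elongation and desaturation.

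Cells build cholesterol from acetyl-CoA through mevalonate, isoprenoids, squalene and lanosterol, and build fatty acids from acetyl-CoA through malonyl-CoA. Both routes are switched on by the SREBP transcription factors, encoded by Srebf1 and Srebf2. These are held in the endoplasmic reticulum by Insig proteins while sterol is plentiful and travel to the nucleus when it is scarce. SREBP binds sterol regulatory elements, often beside sites for the general factors NF-Y and Sp1. In the small intestine, sterol comes both from the diet and from synthesis in the epithelium itself.

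RNA was sequenced from the small-intestinal epithelium of C57BL/6J mice aged 8 weeks. All mice carried the Lgr5-GFP reporter, in which green fluorescent protein marks cells that use Lgr5, a gene of crypt stem cells. The control mice were Itgb7+/+ (wild type, WT) and the others Itgb7-/- (knockout, KO). Itgb7 encodes integrin beta 7, which gut lymphocytes carry, and the labels name no tissue-limited deletion. From crypts, live EpCAM+ cells without CD45, CD31 or TER119 were sorted as GFP-high cells, labelled stem cells, or as GFP-low cells, labelled transit-amplifying cells. Each of the 4 groups had 5 libraries, from WT mice numbered 1, 3, 6, 7 and 8 and KO mice numbered 2, 3, 4, 5 and 6. Values are listed below in that order. The labels number the samples within a genotype, and each number is taken here as a mouse; p-values measure the spread between these samples.

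Library totals ran from 20900404 to 27838392 counts. Neither table held Itgb7, so its own transcript gives no check of the genotypes. All 10 stem cell markers examined fell in GFP-low cells of both genotypes. Their summed level was 4009 to 5573 CPM, the count scaled to library size, in the WT GFP-high libraries and 599.7 to 1133 in the WT GFP-low libraries. The GFP-low sort held mature cell transcripts too: markers of enterocytes rose for 13 of the 13 measured in WT mice and 12 in KO mice, and all 11 Paneth and all 9 goblet markers rose in both. Their part in the differences between populations given below was not tested. The WT GFP-low libraries of mice 3 and 8 stood apart, with composition (TMM) factors of 0.7295 and 0.7293 against 0.898 to 1.147 in the other 18. The main fits and levels below keep them, and an alternative without them is given beside the main results.

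RefSeq promoter windows on GRCm38.p6 were matched by symbol for 25 of the 31 genes. Those for Fdps, Fdft1, Sqle, Stard4, Scd1 and Scd2 were not in the table. The windows below run from 250 bases before the RefSeq start and end before the first base of the gene in GENCODE M21. They are printed to show the motifs in genes of different roles that rose in GFP-low cells, beside Elovl6, which also rose, and Acss2, which fell. The Acss2 window is 155 bases long, and its 1 NF-Y match lies outside it, nearer the start. Capitals mark the sterol regulatory element TCACNCCAC and the NF-Y motif CCAAT or its reverse complement ATTGG. Hmgcs1 is shown at chr13:119690101-119690350, Mvk at chr5:114444019-114444268, Insig1 at chr5:28071162-28071362, Elovl6 at chr3:129532136-129532354 and Acss2 at chr2:155517793-155517947, all on the plus strand. Ebp at chrX:8193513-8193762 and Sc5d at chr9:42264301-42264550 are on the minus strand.
Hmgcs1: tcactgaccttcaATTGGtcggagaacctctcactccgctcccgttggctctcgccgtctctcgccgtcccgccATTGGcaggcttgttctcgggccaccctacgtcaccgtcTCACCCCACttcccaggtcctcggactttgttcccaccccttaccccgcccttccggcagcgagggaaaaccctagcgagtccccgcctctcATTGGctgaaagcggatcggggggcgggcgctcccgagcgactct
Mvk: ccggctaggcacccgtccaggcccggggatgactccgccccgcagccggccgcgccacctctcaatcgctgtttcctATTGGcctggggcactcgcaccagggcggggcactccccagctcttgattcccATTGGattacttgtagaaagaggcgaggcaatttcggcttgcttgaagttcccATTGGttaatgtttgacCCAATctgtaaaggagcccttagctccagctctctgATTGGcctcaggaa
Ebp: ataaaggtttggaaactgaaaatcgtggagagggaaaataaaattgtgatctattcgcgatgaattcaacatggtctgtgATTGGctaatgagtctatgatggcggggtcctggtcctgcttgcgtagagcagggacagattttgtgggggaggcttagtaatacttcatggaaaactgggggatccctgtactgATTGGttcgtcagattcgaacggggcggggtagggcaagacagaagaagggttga
Sc5d: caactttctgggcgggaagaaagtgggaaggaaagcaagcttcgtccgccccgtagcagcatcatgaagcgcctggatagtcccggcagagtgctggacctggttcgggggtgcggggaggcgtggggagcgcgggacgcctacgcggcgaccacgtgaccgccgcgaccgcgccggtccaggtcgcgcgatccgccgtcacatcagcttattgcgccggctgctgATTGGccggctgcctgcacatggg
Insig1: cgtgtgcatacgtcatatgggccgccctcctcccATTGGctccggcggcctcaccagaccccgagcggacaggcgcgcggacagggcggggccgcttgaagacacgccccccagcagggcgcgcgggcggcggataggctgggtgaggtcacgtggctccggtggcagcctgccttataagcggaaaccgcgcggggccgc
Elovl6: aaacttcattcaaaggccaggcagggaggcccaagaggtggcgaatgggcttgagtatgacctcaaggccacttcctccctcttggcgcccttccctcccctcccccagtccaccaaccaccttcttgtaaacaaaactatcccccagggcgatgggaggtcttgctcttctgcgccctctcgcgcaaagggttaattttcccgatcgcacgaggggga
Acss2: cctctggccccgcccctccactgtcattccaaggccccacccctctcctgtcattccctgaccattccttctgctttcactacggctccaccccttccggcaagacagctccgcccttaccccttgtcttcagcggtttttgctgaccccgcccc

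Within the whole 250 bases before the start, CCAAT on either strand occurred in 21 of the 25 windows (84%), against 41.3% of 8697 genes tested and 37.5% of all 27025 genes of the table. The 14 mevalonate and sterol enzymes with this motif were all of the 15 in the table except Acat2. All 3 regulators held it, as did 4 of 7 fatty acid enzymes, those without it being Acaca, Acly and Elovl6. Mvk held 5 matches, starting 173, 120, 67, 50 and 14 bases before the start. The Sp1 motif GGGCGG occurred in 21 windows (84%), against 64.6% of genes tested and 35.4% of all. TCACNCCAC occurred only in the Hmgcs1 window (4%), 137 to 129 bases before its start, against 1.25% of genes tested. The E-box CACGTG occurred in 4 windows (16%), those of Hsd17b7, Sc5d, Dhcr7 and Insig1, against 10% of genes tested. In the member windows, 1 pair of NF-Y and Sp1 matches overlapped, and no other pair of motifs did. These are matches of the letters given, so elements of other sequences were not counted, and factor binding was not measured.

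The first question was how the genes differ between GFP-high and GFP-low cells. In WT mice 20 of the 30 rose in GFP-low cells, 1 fell and 9 did not pass an adjusted p of 0.05 in edgeR's quasi-likelihood test. Across all 11281 genes tested, 22% rose and 21.4% fell (43.4% either way). The median log2 fold change was 0.81 for the 30 genes and -0.01 for all genes. In KO mice 26 rose, 1 fell and 3 did not pass, against 26.2% rising and 24.4% falling among 11282 genes (50.5% either way), with a median of 0.96 for the 30 genes. The 20 genes that rose in WT mice were all among the 26 that rose in KO mice, and the gene that fell was Acss2 in both. These fits leave out the pairing of the 2 populations within a mouse. With the mouse as a block, 24 of the 30 rose in WT mice, beside 2923 of all 11281 genes. In KO mice 26 rose with the block, beside 3307 of all 11282 genes. In whole sorted populations, a different mix of cells and a different RNA content per cell cannot be told apart.

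Enzymes of sterol synthesis were 15 of the 20 genes that rose in WT mice and 17 of the 26 in KO mice. The list holds 18 of them, with a median log2 fold change of 0.87 in WT and 1.04 in KO mice. Of the 8 fatty acid enzymes measured, 3 rose and 1 fell in WT mice (median 0.40), and 6 rose and 1 fell in KO mice (0.56). Whether the 2 branches differ was not tested. The values of the 30 genes lay apart between populations, with every GFP-low library above every GFP-high library, for 13 genes in WT mice (15% of all genes) and 21 in KO mice (18.1%). Every GFP-low library lay below for 1 gene, Acss2, in each (13.7% and 17.3% of all genes).

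**Figure D1:**
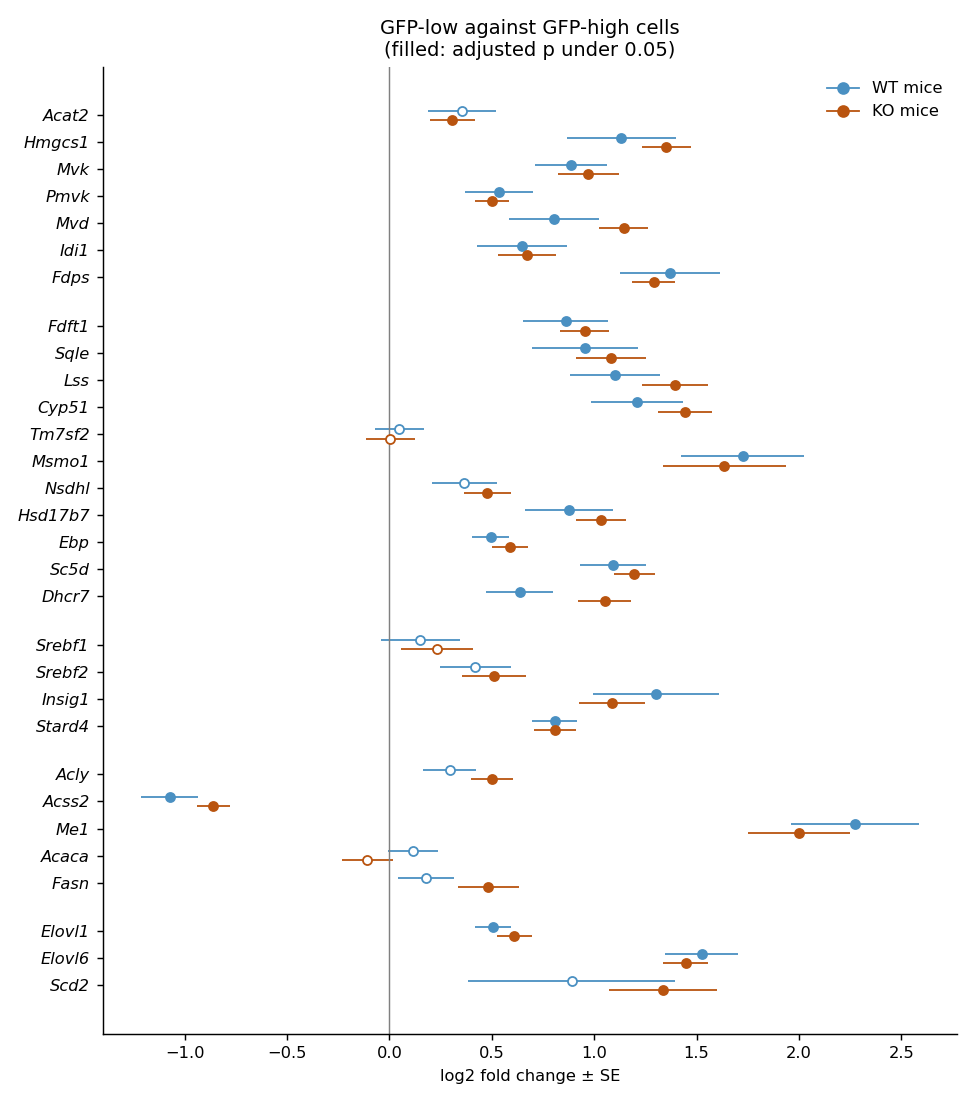
Log2 fold change ± SE (x axis) of 30 genes (y axis, grouped by role from the mevalonate steps at the top to desaturation at the bottom) for GFP-low against GFP-high cells, in WT mice (blue) and KO mice (orange), with filled points for adjusted p under 0.05 in edgeR. In WT mice 20 genes lie to the right as filled points, in KO mice 26, and Acss2 is the filled point on the left in both.

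The mevalonate and isoprenoid steps turn acetyl-CoA into farnesyl diphosphate. Hmgcs1 encodes HMG-CoA synthase and lies at chr13:119690379-119708260 (GRCm38, plus strand). Hmgcs1 was at 42.2, 57.1, 36.4, 21.4 and 23.9 CPM in the WT GFP-high libraries and 95.8, 93.9, 88.1, 45.8 and 72.9 CPM in the WT GFP-low libraries. In KO mice it was at 42.1, 31.1, 30.4, 32.2 and 40.9 CPM in GFP-high and 80.7, 99.5, 79.8, 86.4 and 101 CPM in GFP-low cells. The WT groups overlapped, through the high GFP-high library of mouse 3 and the low GFP-low library of mouse 7, and the KO groups did not. The log2 fold change was 1.13 ± 0.27 in WT mice (edgeR adjusted p = 0.00444) and 1.35 ± 0.12 in KO mice (adjusted p = 9.35e-07).

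Mvk, mevalonate kinase, was at 30.6, 40.9, 29.2, 22.1 and 23.4 CPM in WT GFP-high cells and 62.3, 66.3, 44.1, 44.6 and 52.9 CPM in WT GFP-low cells. KO libraries had 39.2, 29.8, 33.2, 39.1 and 39.4 CPM in GFP-high and 50.9, 64.4, 62.2, 94.9 and 78.7 CPM in GFP-low cells. Neither genotype showed overlap between populations, and mouse 5 gave the highest KO GFP-low value. Mvk rose by a log2 fold change of 0.89 ± 0.18 in WT (adjusted p = 0.00158, edgeR) and 0.97 ± 0.15 in KO mice (adjusted p = 0.000125).

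Fdps makes farnesyl diphosphate, the branch point to sterols and prenylated proteins, and per kilobase of exon was the most abundant of these 7 genes in WT GFP-low cells (82.2 CPM). WT GFP-high libraries held 141, 204, 78.5, 115 and 129.8 CPM of Fdps and WT GFP-low libraries 324, 523, 270.4, 257 and 355 CPM. For KO mice the values were 167, 140.4, 138, 168 and 192 CPM in GFP-high and 343, 382, 389, 432 and 408 CPM in GFP-low cells. No GFP-low library was as low as any GFP-high library of its genotype, and WT mouse 3 was highest in both populations. The log2 fold changes were 1.37 ± 0.24 in WT (edgeR adjusted p = 0.000754) and 1.29 ± 0.11 in KO mice (adjusted p = 5.15e-07). GENCODE M21 places 1124 exon bases of Fdps under another gene model on the same strand, so their reads may have been shared.

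Of the other 4 genes in these steps, Mvd, which makes isopentenyl diphosphate, had log2 fold changes of 0.80 ± 0.22 in WT and 1.14 ± 0.12 in KO mice. Pmvk, phosphomevalonate kinase, rose by 0.53 ± 0.17 and 0.50 ± 0.08, and Idi1, the isomerase, by 0.65 ± 0.22 and 0.67 ± 0.14. Acat2, the cytosolic thiolase that starts the pathway, was at 0.35 ± 0.17 in WT mice, which did not pass (edgeR adjusted p = 0.104), and rose by 0.31 ± 0.11 in KO mice (adjusted p = 0.0327). With the mouse as a block Acat2 passed in WT mice too (0.37, adjusted p = 0.00403), whereas scaling by library totals gave -0.022 there. The Idi1 call in WT mice was lost without any one of 6 libraries (GFP-high 6, 7 or 8, GFP-low 1, 3 or 6), at log2 fold changes of 0.55, 0.58, 0.56, 0.65, 0.59 and 0.62. Pmvk lost its call without GFP-high 7 (0.48) or GFP-low 1 (0.42). Acat2 lost its KO call without GFP-high 2, 4 or 5 (0.29, 0.25 and 0.31) or GFP-low 2, 3, 4 or 6 (0.28, 0.27, 0.30 and 0.30).

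The squalene and sterol steps run from farnesyl diphosphate to cholesterol. Msmo1, the methylsterol monooxygenase at chr8:64718139-64733792 (minus strand), showed the greatest log2 fold change of the 18 sterol enzymes in both genotypes. Its level was 3.05, 2.68, 1.32, 1.297 and 1.26 CPM in WT GFP-high and 6.63, 8.85, 5.19, 4.62 and 6.46 CPM in WT GFP-low libraries. KO mice had 1.65, 1.93, 1.84, 1.87 and 3.62 CPM in GFP-high and 7.58, 6.42, 2.94, 9.38 and 7.52 CPM in GFP-low cells. The KO groups overlapped, since the GFP-high library of mouse 6 lay above the GFP-low library of mouse 4. Msmo1 rose by 1.72 ± 0.30 (adjusted p = 0.000638, edgeR) in WT and 1.64 ± 0.30 (adjusted p = 0.000476) in KO mice, on the log2 scale. Per kilobase of exon it was also the least abundant of the 30 genes in WT GFP-high cells, at 0.312 CPM.

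Sc5d, a sterol desaturase late in the pathway, was at 22.1, 27.6, 16.7, 18.6 and 17.4 CPM in the WT GFP-high and 38.2, 58.04, 43.6, 38.2 and 40.3 CPM in the WT GFP-low group. KO GFP-high libraries had 19.8, 21.9, 19.4, 21.4 and 25.1 CPM and KO GFP-low libraries 46.4, 50.95, 54.6, 43.8 and 48.9 CPM. The populations did not overlap in either genotype. The log2 fold change of Sc5d was 1.09 ± 0.16 in WT (edgeR adjusted p = 0.000206) and 1.20 ± 0.10 in KO mice (adjusted p = 6.18e-07).

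Ebp, the sterol isomerase encoded on the X chromosome, was the most abundant sterol enzyme per kilobase in WT GFP-high cells, at 49.5 CPM. In CPM it stood at 109.6, 125, 106, 115 and 116 in WT GFP-high and 169, 176, 146, 144 and 169.7 in WT GFP-low libraries. In KO mice Ebp was at 115, 117, 126, 113 and 113 CPM in GFP-high and 155, 164, 179, 204 and 166 CPM in GFP-low cells. Its libraries lay close together and the populations did not overlap. Its rise was modest, at 0.49 ± 0.09 in WT (adjusted p = 0.000891, edgeR) and 0.59 ± 0.09 in KO mice (adjusted p = 8.27e-05), and the WT call was lost on library totals (0.13).

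Dhcr7 carries out the last step to cholesterol. WT mice had 20.7, 26.2, 13.8, 19.8 and 14.8 CPM of Dhcr7 in GFP-high and 32.7, 33.2, 26.8, 28.03 and 27.2 CPM in GFP-low cells. The KO values were 18.5, 19.4, 13.7, 17.3 and 20.5 CPM in GFP-high and 32.3, 40.2, 30.4, 36.8 and 43.9 CPM in GFP-low cells. Dhcr7 rose by 0.64 ± 0.16 in WT (edgeR adjusted p = 0.00777) and 1.05 ± 0.13 in KO mice (adjusted p = 1.93e-05), with no overlap between populations in either.

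Tm7sf2, a sterol reductase at chr19:6062821-6068373 (minus strand), was the one sterol enzyme that passed in neither genotype. It was at 44.6, 48.5, 41.5, 45.8 and 49.2 CPM in WT GFP-high and 49.7, 39.5, 48.8, 40.1 and 59.3 CPM in WT GFP-low cells. KO libraries gave 60.5, 51.6, 45.4, 53.4 and 54.1 CPM in GFP-high and 47.01, 48.98, 46.8, 70.2 and 50.4 CPM in GFP-low cells. Populations overlapped in both genotypes, and GFP-low exceeded GFP-high in 5 of the 10 mice. The log2 fold changes were 0.05 ± 0.12 (edgeR adjusted p = 0.768) and 0.00 ± 0.12 (adjusted p = 0.979), and both were below 0 on library totals (-0.31 and -0.27). Vps51 shares 532 exon bases with Tm7sf2 on the same strand, so their reads may be shared. Vps51 was at 0.14 ± 0.12 in WT, which did not pass, and rose by 0.34 ± 0.12 in KO mice.

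Of the other 6 sterol enzymes, Cyp51, which removes a methyl group from lanosterol, rose by 1.21 ± 0.22 in WT and 1.44 ± 0.13 in KO mice. Lss, which closes the sterol rings, rose by 1.10 ± 0.22 and 1.39 ± 0.16. Sqle, the oxygen-using squalene epoxidase, rose by 0.96 ± 0.26 and 1.08 ± 0.17. All 3 were higher in GFP-low cells of each of the 10 mice. Fdft1, squalene synthase, rose by 0.86 ± 0.21 and 0.95 ± 0.12, and Hsd17b7, a sterol ketone reductase, by 0.88 ± 0.22 and 1.03 ± 0.12. The exons of Fdft1 share 774 bases with those of Ctsb on the opposite strand, and Ctsb passed in neither genotype (-0.06 ± 0.14 and -0.0073 ± 0.0890). Nsdhl, the sterol dehydrogenase, did not pass in WT mice at 0.37 ± 0.16 (edgeR adjusted p = 0.0812). It rose by 0.48 ± 0.12 in KO mice (adjusted p = 0.00348). With the mouse as a block it passed in WT mice (0.36, adjusted p = 0.00609), and on library totals it stood at -0.013.

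Without the GFP-low libraries of WT mice 3 and 8, an alternative chosen after seeing the data, 16 genes rose in WT mice. The calls lost were those of Pmvk (0.53), Mvd (0.61), Idi1 (0.60) and Sqle (0.86, edgeR adjusted p = 0.054). With library totals in place of TMM factors, 11 rose in WT mice and 20 in KO mice. The 11 in WT mice were Hmgcs1, Mvk, Fdps, Lss, Cyp51, Msmo1, Sc5d, Insig1, Stard4, Me1 and Elovl6. That scaling moved the median of all genes to -0.37 in WT and -0.27 in KO mice, while for the 30 genes the median became 0.43 and 0.69. It also moved the rising share of all called genes from 50.6% (2478 rose, 2416 fell) to 19.5% (1188 and 4892) in WT mice, and from 51.8% (2954 and 2748) to 27.3% (1777 and 4737) in KO mice.

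**Figure D2:**
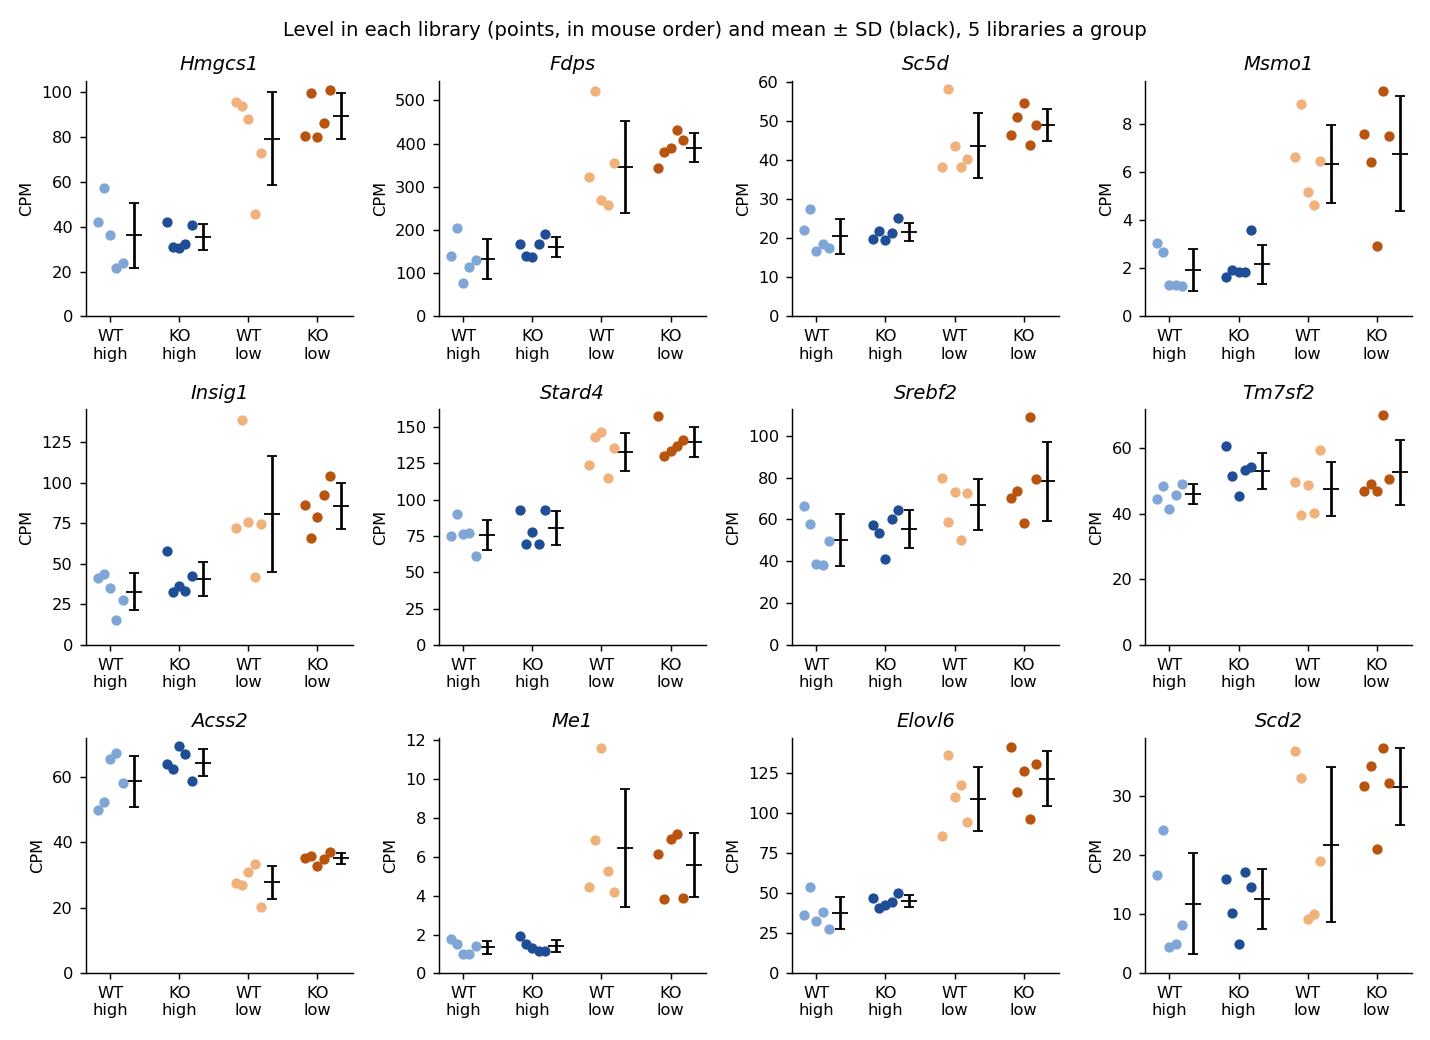
Level in CPM (y axis, from 0) of 12 genes in each library (points, 5 a group, in the order of mouse numbers) with the mean ± SD in black, for WT and KO GFP-high (blue) and GFP-low (orange) cells. Both GFP-low groups lie above both GFP-high groups for Fdps, Sc5d, Stard4, Me1 and Elovl6 and below them for Acss2, while the groups overlap for Srebf2 and Tm7sf2.

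The regulators and the carrier divided into those that rose in both genotypes and the Srebf genes. Insig1, which retains the SREBP complex in the endoplasmic reticulum and is itself an SREBP target, was at 41.5, 43.6, 34.9, 15.6 and 27.99 CPM in WT GFP-high cells. WT GFP-low libraries had 72.3, 139, 75.6, 41.6 and 74.7 CPM, with mouse 3 far above the rest and mouse 7 within the GFP-high range. KO mice had 58.1, 32.7, 36.5, 33.3 and 42.8 CPM in GFP-high and 86.1, 66.2, 78.5, 92.6 and 104 CPM in GFP-low cells, without overlap. Insig1 rose by 1.30 ± 0.31 in WT (adjusted p = 0.00471, edgeR) and 1.09 ± 0.16 in KO mice (adjusted p = 9.05e-05).

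Stard4, a soluble sterol carrier, was at 74.9, 90.4, 76.2, 77.1 and 61.3 CPM in WT GFP-high and 124, 143, 146, 115 and 136 CPM in WT GFP-low cells. It had 92.7, 69.8, 77.6, 69.8 and 93.1 CPM in KO GFP-high and 157, 129.9, 134, 137 and 141 CPM in KO GFP-low cells. No library crossed between the populations. The log2 fold changes of Stard4 were nearly equal, at 0.81 ± 0.11 in WT (edgeR adjusted p = 0.000119) and 0.81 ± 0.10 in KO mice (adjusted p = 2.39e-05).

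Srebf2 encodes the SREBP that mainly drives sterol genes. WT GFP-high cells held 66.6, 57.9, 38.6, 37.99 and 49.7 CPM of Srebf2 and WT GFP-low cells 79.9, 58.6, 73.3, 50.4 and 72.8 CPM. For KO mice these were 57.3, 53.4, 41.2, 60.4 and 64.6 CPM in GFP-high and 70.5, 73.8, 58.5, 109 and 79.3 CPM in GFP-low cells. Populations overlapped in both genotypes, yet GFP-low exceeded GFP-high in each of the 10 mice. At 0.42 ± 0.17 the change did not pass in WT mice (adjusted p = 0.0672, edgeR), where the fit with the mouse as a block did (0.43, adjusted p = 0.0112). In KO mice Srebf2 rose by 0.51 ± 0.16 (adjusted p = 0.0141).

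Srebf1, which encodes the SREBP forms tied more to fatty acid genes, was at 28.8, 26.2, 20.1, 15.5 and 22.4 CPM in WT GFP-high cells. WT GFP-low libraries had 31.3, 26.97, 28.8, 16.6 and 21.6 CPM of it. KO GFP-high libraries had 29.5, 22.8, 18.6, 23.3 and 24.3 CPM and KO GFP-low libraries 31.2, 23.1, 17.7, 37.6 and 28.4 CPM. All groups overlapped. The log2 fold changes of 0.15 ± 0.19 in WT (edgeR adjusted p = 0.553) and 0.23 ± 0.18 in KO mice (adjusted p = 0.285) did not pass, and they were -0.20 and -0.028 on library totals. Gene totals do not separate the SREBP-1a and SREBP-1c forms.

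Fatty acid synthesis draws on acetyl-CoA from Acly and Acss2, on NADPH from Me1, and on the enzymes Acaca and Fasn. Acss2, which makes acetyl-CoA from acetate and lies at chr2:155517948-155585724 (plus strand), was the only one of the 30 that fell with TMM factors. It was at 49.9, 52.2, 65.5, 67.1 and 58.1 CPM in WT GFP-high and 27.6, 26.9, 31.05, 33.4 and 20.2 CPM in WT GFP-low cells. KO mice had 64.01, 62.4, 69.3, 66.8 and 58.7 CPM in GFP-high and 35.2, 35.7, 32.7, 34.8 and 36.97 CPM in GFP-low cells. All GFP-low values lay below all GFP-high values, and the fall was seen in each of the 10 mice. On the log2 scale Acss2 stood at -1.07 ± 0.14 in WT (edgeR adjusted p = 7.6e-05) and -0.86 ± 0.08 in KO mice (adjusted p = 1.38e-06). Its exons overlap those of Gss by 395 bases and of Ggt7 by 197 on the opposite strand. Gss was at 0.11 ± 0.13 in WT and 0.13 ± 0.08 in KO mice, neither passing.

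Me1, the cytosolic malic enzyme at chr9:86581371-86695953 (minus strand), showed the greatest log2 fold change of the 30 genes in both genotypes. Its libraries were at 1.78, 1.502, 1.001, 0.998 and 1.41 CPM in WT GFP-high and 4.42, 6.84, 11.6, 5.27 and 4.17 CPM in WT GFP-low cells. In KO mice Me1 was at 1.93, 1.51, 1.32, 1.16 and 1.13 CPM in GFP-high and 6.15, 3.803, 6.92, 7.18 and 3.89 CPM in GFP-low cells. These are low levels, and the populations did not overlap. Me1 rose by 2.27 ± 0.31 in WT (adjusted p = 0.000115, edgeR), a 4.83-fold rise, and by 2.00 ± 0.25 in KO mice (adjusted p = 1.92e-05).

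Acly, which splits citrate into acetyl-CoA, was at 37.4, 33.1, 32.6, 30.5 and 29.8 CPM in WT GFP-high and 44.9, 32.8, 38.2, 33.8 and 50.7 CPM in WT GFP-low cells. KO libraries had 35.7, 29.9, 30.3, 34.7 and 32.8 CPM in GFP-high and 37.7, 52.5, 49.2, 43.4 and 46.3 CPM in GFP-low cells. The WT groups overlapped and the KO groups did not. Acly did not pass in WT mice at 0.29 ± 0.13 (edgeR adjusted p = 0.0849; -0.067 on library totals) and rose by 0.50 ± 0.10 in KO mice (adjusted p = 0.00109).

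Acaca, acetyl-CoA carboxylase, commits carbon to fatty acids. WT libraries had 13.3, 11.1, 12.9, 12.8 and 16.4 CPM of it in GFP-high and 15.01, 13.8, 14.9, 12.9 and 15.4 CPM in GFP-low cells. KO libraries had 19.8, 13.5, 15.2, 18.6 and 14.2 CPM in GFP-high and 15.7, 15.03, 13.1, 14.8 and 15.99 CPM in GFP-low cells. All groups overlapped, and the log2 fold changes of 0.11 ± 0.12 in WT (edgeR adjusted p = 0.475) and -0.11 ± 0.12 in KO mice (adjusted p = 0.487) did not pass. On library totals they were -0.24 and -0.37, the second of which passed (adjusted p = 0.0375). Fasn, fatty acid synthase, was at 68.9 ± 11.6 (SD, n = 5) and 77.96 ± 12.02 CPM in WT GFP-high and GFP-low cells. Its log2 fold change in WT mice was 0.18 ± 0.14 (adjusted p = 0.31, -0.18 on library totals), and in KO mice it rose by 0.48 ± 0.15 (adjusted p = 0.0158).

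Elongases and desaturases modify the fatty acids that Fasn releases. Elovl6, which extends palmitate, lies at chr3:129532355-129638495 (plus strand) and was at 36.6, 54.1, 32.6, 38.3 and 27.5 CPM in WT GFP-high cells. WT GFP-low libraries had 85.5, 137, 110.1, 118 and 94.8 CPM. KO GFP-high libraries had 46.8, 40.8, 42.7, 44.4 and 50.3 CPM and KO GFP-low libraries 141, 113, 126, 96.5 and 131 CPM. The populations were far apart in both genotypes. The log2 fold change of Elovl6 was 1.53 ± 0.18 in WT (edgeR adjusted p = 3.41e-05) and 1.45 ± 0.11 in KO mice (adjusted p = 2.51e-07). None of the 4 motifs occurred in its promoter window.

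Elovl1 elongates very long chains and, per kilobase of exon, was the most abundant of the 30 genes in WT GFP-high cells (61.6 CPM). Elovl1 was at 166, 178, 158, 158 and 179.7 CPM in WT GFP-high and 244, 256, 208, 229 and 255 CPM in WT GFP-low cells. KO mice showed 179, 144, 144, 164 and 166 CPM in GFP-high and 233, 233, 232, 252 and 255 CPM in GFP-low cells. Without overlap in either genotype, it rose by 0.50 ± 0.09 in WT (adjusted p = 0.000673, edgeR; 0.14 and not passing on library totals) and 0.61 ± 0.08 in KO mice (adjusted p = 4.25e-05).

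Scd2, a desaturase that makes monounsaturated fatty acids, had the highest coefficient of variation of the 30 genes in 3 of the 4 groups (72.8% in WT GFP-high, 39.9% in KO GFP-high and 60.2% in WT GFP-low cells). It was at 16.6, 24.3, 4.49, 5.02 and 8.204 CPM in WT GFP-high and 37.6, 33.02, 9.09, 9.95 and 19.01 CPM in WT GFP-low cells. In KO mice Scd2 was at 15.99, 10.2, 4.92, 17.1 and 14.6 CPM in GFP-high and 31.6, 35.01, 20.97, 37.97 and 32.03 CPM in GFP-low cells. WT mice 1 and 3 were high in both populations and WT mice 6 and 7 low in both. Scd2 at 0.89 ± 0.51 did not pass in WT mice (adjusted p = 0.174, edgeR) but did with the mouse as a block (0.96, adjusted p = 1.74e-04), and it rose by 1.34 ± 0.26 in KO mice (adjusted p = 0.000815).

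Within single mice, GFP-low CPM exceeded GFP-high CPM in all 10 mice for 22 of the 30 genes, a pattern held by 21.7% of all genes. Acss2 was lower in GFP-low cells of all 10, as were 20.9% of all genes. The log2 ratio of GFP-low to GFP-high within a mouse ran from 0.72 (WT mouse 3) to 1.68 (KO mouse 3) for Hmgcs1. For Me1 it ran from 1.31 (WT mouse 1) to 3.53 (WT mouse 6), and for Elovl6 from 1.12 (KO mouse 5) to 1.79 (WT mouse 8). The median ratio over the 30 genes lay between 0.54 in WT mouse 3 and 1.04 in KO mouse 3.

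**Figure D3:**
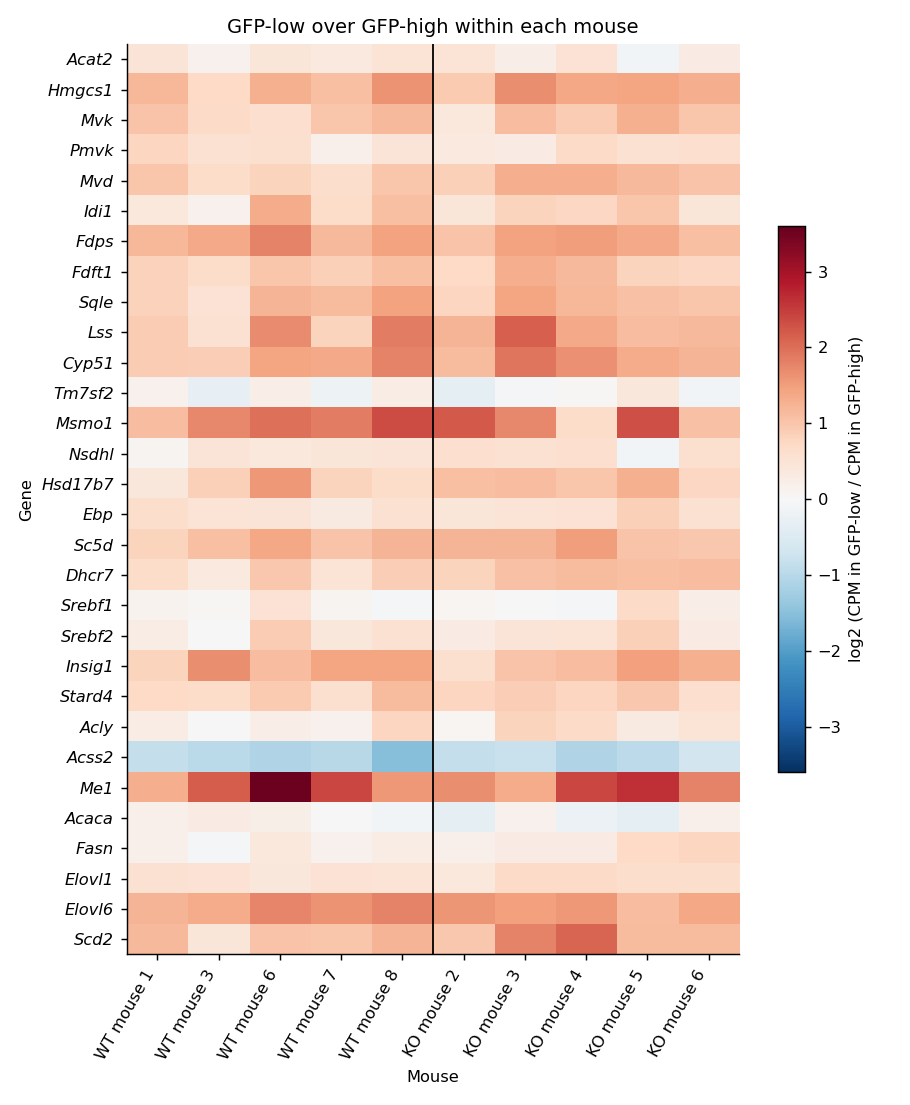
Log2 ratio of GFP-low to GFP-high CPM (colour, red for higher in GFP-low and blue for lower) for 30 genes (rows) in each of the 5 WT and 5 KO mice (columns). Most rows are red in every mouse, Me1 and Msmo1 most deeply, Acss2 is blue in all 10, and Tm7sf2, Acaca and Srebf1 are pale.

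The genes also varied together from mouse to mouse. Among WT GFP-high libraries, mouse 3 was highest for 20 of the 30 genes, and for 19.4% of all genes, with a median log2 deviation of 0.49 from the group mean. Among WT GFP-low libraries mouse 3 was again highest, for 17 genes (20.3% of all), and mouse 7 was lowest for 19 (19.3% of all). WT GFP-high libraries of mice 6 and 7 were lowest for 11 and 10 genes (18.8% and 22.1% of all). In KO mice the GFP-high library of mouse 6 was highest for 14 genes (16.6% of all) and the GFP-low library of mouse 4 lowest for 14 (21.6% of all). The median coefficient of variation over the 30 genes was 25.4% in WT GFP-high cells, against 14.9% for all genes. It was 14.7% against 12.9% in KO GFP-high, 18.9% against 16.97% in WT GFP-low and 13.0% against 15.8% in KO GFP-low cells. The summed Paneth markers of WT GFP-low cells were highest in mouse 3, at 267900 CPM, against a median of 110600. The summed enterocyte markers were highest there too, at 4462 CPM against a median of 2997. Mouse 8 had nearly the same Paneth sum, 262300 CPM, and its GFP-low library was highest for 3 of the 30 genes (20.8% of all). In WT GFP-high cells the Paneth sum of mouse 3 was 19350 CPM, against a median of 34720. The part of these markers in the levels of the sterol genes was not tested.

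**Figure D4:**
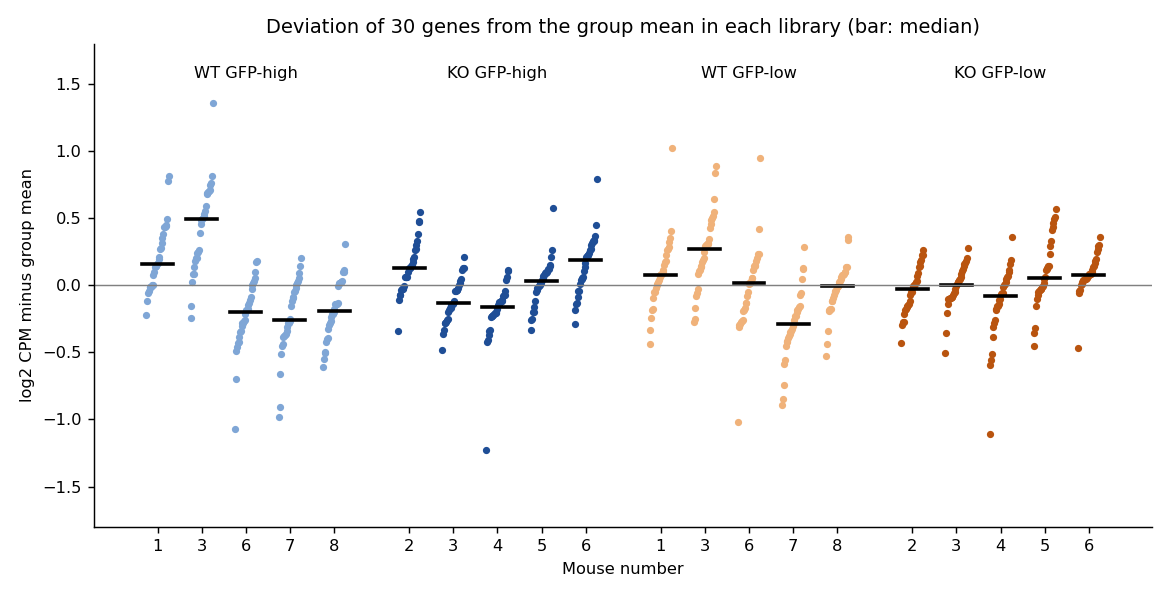
Deviation of each of 30 genes (points) from its group mean in log2 CPM (y axis) in each library (x axis, mouse number within 4 groups), with the median as a black bar. The WT libraries of mouse 3 lie above their groups in both populations and the WT libraries of mouse 7 below.

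The second question was whether loss of Itgb7 altered these genes. In GFP-high cells none of the 30 passed in KO against WT mice by edgeR, and none of the 11745 genes tested did (0%). By DESeq2 also none of the 30 passed, with 50 genes rising and 95 falling among all. The log2 fold changes of the 30 ran from -0.13 to 0.32 with a median of 0.11, and 24 were above 0, against 51.4% of all genes. At an unadjusted p of 0.05, 1 of the 30 and 1150 of all genes passed. Without single libraries the median ran from 0.06 (without WT mouse 6, with 20 above 0) to 0.21 (without WT mouse 3, with 28 above 0). The fewest above 0 were 18, without WT mouse 7. No gene had all KO libraries above or below all WT libraries (0.948% and 0.931% of all genes).

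Most markers of enteroendocrine, goblet and tuft cells were lower in KO than in WT GFP-high cells, though none passed. Markers of 1 cell type can vary together, so counts of them below 0, here and in GFP-low cells, are not counts of independent results. All 8 enteroendocrine markers tested had log2 fold changes below 0 (median -1.03, 6 of them at an unadjusted p under 0.05), as did all 9 goblet markers (median -0.63, 5 of them) and 6 of 7 tuft markers (median -0.73, 4 of them). Summed enteroendocrine markers ran from 126.3 to 552.4 CPM in WT and from 118.8 to 183.6 CPM in KO mice, and summed goblet markers from 2344 to 5966 and from 2455 to 4664 CPM. Stem markers were 5 above and 5 below 0 (median 0.007). Their part in the values of the 30 genes was not tested.

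The smallest p-values among the 30 in GFP-high cells were those of Tm7sf2 and Acaca, whose libraries are given above. Tm7sf2 was at 45.9 ± 3.11 CPM (SD, n = 5) in WT and 53.00 ± 5.42 in KO mice. Its log2 fold change was 0.21 ± 0.09 (edgeR adjusted p = 0.445). Acaca was at 13.3 ± 1.899 and 16.2 ± 2.79 CPM, a log2 fold change of 0.29 ± 0.14 (adjusted p = 0.515). The libraries of the 2 genotypes overlapped for both genes.

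In GFP-low cells too, none of the 30 passed in KO against WT mice, by edgeR or DESeq2, and 1 of 11778 genes passed by edgeR (0.00849%), a fall. Their log2 fold changes had a median of 0.17, against -0.004 for all genes, and 29 of the 30 were above 0, against 49.2% of all genes. The exception was Me1 at -0.21 ± 0.29. At an unadjusted p of 0.05, 4 of the 30 passed (Mvk, Cyp51, Dhcr7 and Acss2), and 744 of all genes. Leaving out single libraries gave medians between 0.11 (without WT mouse 7, 26 above 0) and 0.23 (without WT mouse 3, 29 above 0). Without WT mice 3 and 8 the median was 0.22. Since the 30 genes varied together between mice, the count above 0 is not a count of independent results. No gene separated the genotypes (0.709% and 0.434% of all genes did, above and below).

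Dhcr7 in GFP-low cells averaged 29.6 ± 3.08 CPM (SD, n = 5) in WT and 36.7 ± 5.58 in KO mice, a log2 fold change of 0.31 ± 0.12 (edgeR adjusted p = 0.752). Acss2 averaged 27.8 ± 5.01 and 35.1 ± 1.58 CPM, a log2 fold change of 0.33 ± 0.13 (adjusted p = 0.747). The highest value was that of Scd2, at 0.54 ± 0.35 (adjusted p = 0.842), whose standard error was also the highest. Among marker sums, enterocyte markers ran from 2503 to 4462 CPM in WT and from 1877 to 3061 in KO GFP-low cells, and Paneth markers from 61390 to 267900 and from 25680 to 129400. Log2 fold changes were below 0 for all 15 enterocyte markers (median -0.36) and for 10 of 11 Paneth markers (median -0.60), and none passed. Also below 0 were 7 of 10 stem markers (median -0.215), 6 of 7 tuft markers (-0.33) and 6 of 7 dissociation genes (-0.20). Goblet markers were 5 below and 4 above 0, and enteroendocrine markers 7 below and 3 above. All 7 proliferation genes lay above 0 (median 0.20), and none in these lists passed. Their part in these values was not tested.

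**Figure D5:**
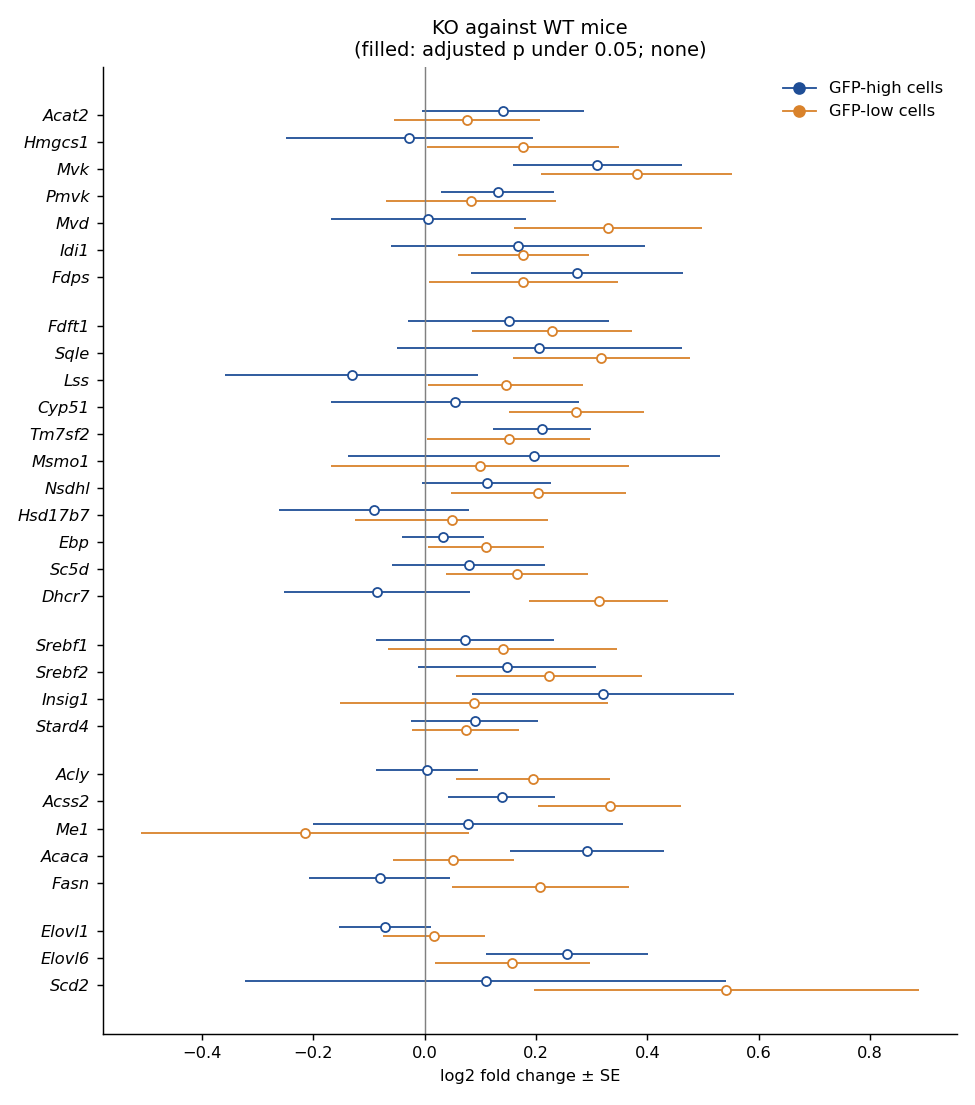
Log2 fold change ± SE (x axis) of 30 genes (y axis, by role) for KO against WT mice in GFP-high (blue) and GFP-low (orange) cells. All points are open, since none passed in edgeR, and 29 of the 30 GFP-low points lie above 0.

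A test of whether the KO effect itself differed from one population to the other passed for none of the 30 genes and none of 11284 tested (0%) by edgeR, and none by DESeq2. At an unadjusted p of 0.05 it was 0 of the 30 and 353 of all genes. The smallest p-values were those of Dhcr7, at 0.40 ± 0.22 (GFP-low minus GFP-high, log2), and Acaca, at -0.24 ± 0.17, both with an edgeR adjusted p of 0.9996. The median over the 30 was 0.08, with 20 above 0. Without single libraries it ran from -0.03 (12 above 0, without the GFP-high library of WT mouse 3) to 0.13 (22 above 0, without that of WT mouse 7). Without the GFP-low libraries of WT mice 3 and 8 it was 0.17, with 25 above 0.

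Other genes of the same pathways moved in both directions between GFP-low and GFP-high cells. Of 27 tested genes of sterol uptake, export, esterification and control, 10 rose and 4 fell in WT mice (median log2 fold change 0.14), and 13 rose and 2 fell in KO mice (0.23). Of all genes, 22% rose and 21.4% fell in WT mice, and 26.2% and 24.4% in KO mice. Npc1l1, the intestinal sterol importer, rose by 2.39 ± 0.15 in WT and 2.49 ± 0.24 in KO mice. Soat1, a sterol esterification enzyme, was at -1.90 ± 0.13 and -1.97 ± 0.14, a fall in both. Abcg5, a subunit of a sterol exporter, rose by 0.88 ± 0.15 in WT and 1.04 ± 0.15 in KO mice. The exporter gene Abcg1 rose by 1.17 ± 0.32 in WT and 1.89 ± 0.25 in KO mice.

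Of 32 tested genes of fatty acid modification, triglyceride synthesis and NADPH supply, 12 rose and 8 fell in WT mice (median 0.03), and 13 rose and 5 fell in KO mice (0.11), beside the same shares of all genes. Mogat2, which rebuilds triglyceride from absorbed monoglyceride, rose by 3.07 ± 0.27 in WT and 2.78 ± 0.28 in KO mice. Idh1 rose by 1.30 ± 0.15 in WT and 1.115 ± 0.091 in KO mice. Mlx, a partner of the sugar-sensing factor ChREBP, rose by 1.11 ± 0.11 in WT and 1.23 ± 0.09 in KO mice. Mid1ip1, an activator of acetyl-CoA carboxylase, rose by 1.58 ± 0.25 in WT and 1.92 ± 0.15 in KO mice. Pgd of the pentose phosphate pathway rose by 0.70 ± 0.10 in WT and 1.003 ± 0.081 in KO mice. Among the genes that fell, Fads1, a fatty acid desaturase, had the smallest p in both genotypes. It was at -1.02 ± 0.14 in WT and -0.78 ± 0.10 in KO mice.

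Fatty acid oxidation, the opposing route, had 5 of 23 tested genes rising and 1 falling in WT mice (median 0.16), and 8 rising and 1 falling in KO mice (0.20). Among all genes 22% rose and 21.4% fell in WT mice, and 26.2% rose and 24.4% fell in KO mice. The share of this list that rose in WT mice was near that of all genes. The share that fell was lower than among all genes in both genotypes. Cpt2 of mitochondrial uptake rose by 0.67 ± 0.17 in WT and 0.84 ± 0.09 in KO mice. Ppara, a receptor that drives oxidation genes, rose by 0.80 ± 0.22 in WT and 1.01 ± 0.13 in KO mice. For none of these 3 lists did a gene pass in KO against WT mice in either population or in the difference of the KO effects, by edgeR. Of the oxidation genes, 21 of 24 tested lay below 0 for KO against WT in GFP-low cells (median -0.17). In GFP-high cells 17 of 23 did (median -0.11). The sterol list had 11 of 27 below 0 in GFP-low and 17 of 27 in GFP-high cells. Genes of 1 list can vary together, so these are not counts of independent results.

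Markers of other cells moved with the population contrast. All 8 measured enteroendocrine markers rose in GFP-low cells of both genotypes, and 7 tuft markers rose in WT and 6 in KO mice. Summed goblet markers ran from 2344 to 5966 CPM in WT GFP-high and from 30610 to 76400 CPM in WT GFP-low cells. Of 7 proliferation genes 3 fell in WT and 6 in KO mice, and of 7 genes induced by cell dissociation 2 rose in WT and 5 in KO mice. None of 5 mitochondrially encoded genes passed in either genotype. Of 10 leukocyte markers 3 were in both tables, Ptprc and Cd3e not among them, and 1 of the 3 rose; none of 4 erythroid markers was. The part of these in the rise of the sterol and fatty acid genes was not tested.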

How the data were processed

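The authors deposited 2 tables of expected counts per gene, for GFP-high and GFP-low libraries, of 11746 and 11779 entries. The submitters' processing notes name RSEM, TopHat2 and Bowtie2 and the build mm10. No source used here gives their versions or roles or the strand of the libraries, so reads of a gene and of an antisense or overlapping gene may be mixed; 13 of the 30 genes share exon bases with another annotated gene. The lowest mean count of an entry was 17.0 and 16.8, so genes of lower counts were not analysed. Of the deposited expected counts 13.7% were not whole, and all were rounded. Gene names altered to dates (16 and 17) and repeated names were left out of comparisons between populations.

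edgeR 4.0.16 (R 4.3.3) fitted each comparison on the whole table with TMM factors, filterByExpr (minimum count 10), the quasi-likelihood test and Benjamini-Hochberg adjustment at 0.05, without a block. Log2 fold changes carry standard errors (SE) and levels the SD. CPM were scaled by TMM over all 20 libraries. DESeq2 1.42.0, library totals, no filter, the mouse as a block, 1 fit of all 20 libraries and leaving out single libraries were tried. Scripts were tested on simulated data.

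Populations of a mouse share its number. Across genes, the deviations of the 2 libraries of a number correlated at 0.15 to 0.65 in WT and 0.189 to 0.468 in KO mice, so the numbers were taken to pair them. Each GFP-high library correlated best with its own number except that of WT mouse 3 (0.159 with the GFP-low library of WT mouse 1, 0.15 with its own). Numbers 3 and 6 recur in both genotypes on different mice (correlations -0.191 to -0.033).

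Members and lists were chosen with earlier results of these data known. All 31 were to be named, with values in every library for the 2 smallest p in each KO comparison, the 3 smallest per role in WT mice, any that fell, and family pairs. Of each other list, the 3 with the smallest p were named, apart from some that are not reported here. Positions are GENCODE M21 on GRCm38, and promoters RefSeq on GRCm38.p6.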

Additional observations from a re-analysis of the deposited data

Results flagged for a closer look

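In 3 of 76 groups of 5 libraries, examined over the 19 genes given library by library, 1 library lay apart from the rest by Dixon's ratio of gap to range. Chance flags about 1 in 20 such groups. Tm7sf2, the sterol reductase, was at 70.2 CPM in the GFP-low library of KO mouse 5, against 50.4 in the next (ratio 0.843). Msmo1, the methylsterol monooxygenase, was at 3.62 CPM in the GFP-high library of KO mouse 6, against 1.93 in the next (ratio 0.857). Sc5d, the sterol desaturase, was at 58.0 CPM in the GFP-low library of WT mouse 3, against 43.6 in the next (ratio 0.729).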

How the results depend on the processing

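The number of genes that rose in GFP-low cells of WT mice was 20, 21 by DESeq2, 20 with no filter, 22 in 1 fit of all 20 libraries and 24 with the mouse as a replicate block. It was 16 without the GFP-low libraries of WT mice 3 and 8, and 18 to 22 without single libraries. On library totals alone it was 11. In KO mice it was 26, 26 by DESeq2, 26 with the block, 25 in the joint fit, 20 on library totals and 25 to 26 without single libraries. The number that fell was 1 in each, except 2 in KO mice on library totals (Acss2 and Acaca, -0.37). No KO against WT call or difference of KO effects arose for the 30 genes under any alternative run, with 0 in each direction also without each single library. The replicate block for KO against WT rests on numbers 3 and 6 only. These are different mice in the 2 genotypes, so that block pairs unrelated animals and its values carry no meaning as a paired result. With it the median over the 30 was 0.03 with 17 above 0 in GFP-high cells and 0.15 with 21 above 0 in GFP-low cells. The replicate block changed no call other than the 4 in WT mice given above. Log2 fold changes turned below 0 on library totals in WT mice for Acat2 (-0.022), Tm7sf2 (-0.31), Nsdhl (-0.013), Srebf1 (-0.20), Acly (-0.067), Acaca (-0.24) and Fasn (-0.18), and in KO mice for Tm7sf2 (-0.27) and Srebf1 (-0.028). Tm7sf2 also turned in WT mice without GFP-low 8 (-0.045, up to 0.11 without other single libraries), and in KO mice with the block (-0.0074), in the joint fit (-0.0085) and without GFP-high 3 (-0.0056), GFP-high 4 (-0.06) or GFP-low 5 (-0.12, up to 0.053 without others). Over all genes tested, library totals gave a median of -0.37 (WT mice) and -0.27 (KO mice); the cause of the other turns of Tm7sf2 was not tested. Counts of low genes such as Msmo1 and Me1 limit their precision.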
